A study of Mus musculus with 4 samples.

Results

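The genes described here are 10 mouse enzymes of glycolysis and lactate metabolism, Hk2, Gpi1, Pfkl, Aldoa, Tpi1, Pgk1, Eno1, Pkm, Ldha and Ldhb, taken by symbol from a table of 16442 genes. All 10 had a row in the table, and 9 passed the filter for testing among 6389 tested genes. Pgk1 did not pass, because it had almost no ribosome footprints. Ldhb passed through its WT-labelled libraries alone. The cells were labelled as leukaemia stem cells, the cells that propagate a leukaemia, from bone marrow of C57BL/6 mice with leukaemia. There were 2 libraries of WT genotype and 2 labelled KO for Rreb1, the gene of a zinc finger protein that binds DNA. KO replicate 2 carries the genotype entry Rreb2-KO and was placed in the KO group by its title. How the leukaemia was induced, the age of the mice, how the allele was made and which animal gave which library are not stated in the labels. The p-values below therefore measure the spread between these libraries, which may be technical.

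Glycolysis splits glucose into pyruvate in the cytosol and yields ATP and NADH. Lactate dehydrogenase then interconverts pyruvate and lactate and regenerates NAD+. It is a tetramer of A and B subunits, from Ldha and Ldhb, and tetramers rich in A subunits are usually associated with lactate production while those rich in B subunits are associated with lactate use. Proliferating leukaemia cells commonly run glycolysis at a high rate.

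The windows around the transcription starts of Ldha and Ldhb are shown because these paralogs differed most from each other between the groups. They are RefSeq promoter windows of 300 bases on GRCm38.p6, printed 5′ to 3′ on the strand of the gene, with ACGTG or its reverse complement CACGT in capitals. Ldha lies at chr7:46845554-46845853 on the plus strand and Ldhb at chr6:142507908-142508207 on the minus strand.
Ldha: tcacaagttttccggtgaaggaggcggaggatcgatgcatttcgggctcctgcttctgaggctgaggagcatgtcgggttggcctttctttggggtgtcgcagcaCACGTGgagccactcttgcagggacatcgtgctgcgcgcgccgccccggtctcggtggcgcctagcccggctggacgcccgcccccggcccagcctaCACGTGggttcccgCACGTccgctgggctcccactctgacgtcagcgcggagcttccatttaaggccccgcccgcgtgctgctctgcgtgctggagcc
Ldhb: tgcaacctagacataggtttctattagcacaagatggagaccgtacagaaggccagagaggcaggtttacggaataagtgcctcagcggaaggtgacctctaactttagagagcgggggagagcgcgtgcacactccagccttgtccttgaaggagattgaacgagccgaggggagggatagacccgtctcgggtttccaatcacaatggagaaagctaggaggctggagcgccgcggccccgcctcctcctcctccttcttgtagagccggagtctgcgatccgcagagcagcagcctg
ACGTG is the core of the hypoxia response element. The Ldha window held 3 separate stretches of it, of which 2 were the palindrome CACGTG, the E-box, which counts as ACGTG on both strands. The Ldhb window held none. Another Ldha start, at chr7:46846832-46847131, also held none. Over both strands, ACGTG occurred in 19.6% of 32851 promoter windows and CACGTG in 7.15%. GGGCGG, the GC box, occurred in 35.7% of windows, with 3 matches in the Ldha window above and 0 in that of Ldhb. The Ldha window had 30 CG pairs and a GC content of 67.3%, against 17 and 57.3% for Ldhb. These matches describe the letters in the windows and say nothing about binding.

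Each library gave 3 quantities per gene. The footprint level counts ribosome-protected fragments, in reads per kilobase, scaled to the assigned reads of the library (RPKM). The RNA level is the input RNA on the same scale, obtained from the deposited footprint value and the deposited translational efficiency (TE). TE is the authors' ratio of footprints to input RNA, each with 1 added. Where 2 values are given for a group they are those of replicates 1 and 2, in that order. Assigned footprint reads ranged from 274183 to 878068, and both KO-labelled libraries were shallower than both WT-labelled ones. The deepest input library exceeded the shallowest by 1.12-fold. Rreb1 itself was not lower in the RNA of the KO-labelled libraries. Its RNA was 3.33 and 3.25 RPKM in the WT-labelled libraries and 6.10 and 6.93 RPKM in the KO-labelled ones, which is 0.81 ± 0.09 (SE) on the log2 scale, with a limma adjusted p of 0.000283. Its footprints were 14.1 and 12.8 against 12.9 and 8.19 RPKM, with an adjusted p of 0.672 in limma. Reads outside a deleted part would not show a deletion, and the allele is not given, so the groups are named here only as they are labelled. Haematopoietic markers were present in all 4 libraries, with Coro1a RNA between 860 and 892 RPKM. Of the stem and progenitor markers, Kit had 1.97 and 2.32 RPKM of RNA in the WT-labelled libraries and 7.36 and 7.15 in the KO-labelled ones. Cd34 had 4.41 and 4.71 against 50.5 and 49.8 RPKM, and Flt3 had 2.54 and 2.99 against 19.5 and 17.7 RPKM. Hoxa9 had 32.6 and 34.6 against 35.8 and 31.8 RPKM, and Hoxa10 had 22.5 and 23.0 against 18.2 and 17.7 RPKM. Among the 6 tested markers of this list 4 were called higher in RNA and 0 lower. The neutrophil granule gene Elane had 8691 and 8517 against 7205 and 6264 RPKM, while Prtn3 of the same list had 823 and 798 against 1334 and 1357 RPKM. Members of each list thus did not move alike, and counts for both lists are given with the other markers below.

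Ldhb RNA fell further than that of any other tested gene, while Ldha RNA was almost level. In RNA, 6 of the 9 tested members passed the threshold (adjusted p under 0.05 in limma): Hk2 rose, and Gpi1, Pfkl, Eno1, Pkm and Ldhb fell. Of all tested genes, 60.8% passed in RNA, 33.1% as higher and 27.7% as lower, so the share among the members, 66.7%, is near the background. Ldhb is in these counts and had to be high in the WT-labelled libraries to be tested. Its own rank, and the counts and medians over the tested members, are therefore descriptions only. In footprints 0 of the 9 passed in limma, against 1.06% of all tested genes (0.595% higher and 0.47% lower), and Aldoa and Ldhb had unadjusted p-values under 0.05, as did 18.2% of all tested genes, which is near the members' share. In TE 0 of the 9 passed, against 0% of all tested genes, and of the 9 only Ldhb had an unadjusted p under 0.05, as did 831 of the 6389 tested genes (13%). limma-voom on recovered reads called 72 of the 6389 tested genes in footprints.

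**Figure D1:**
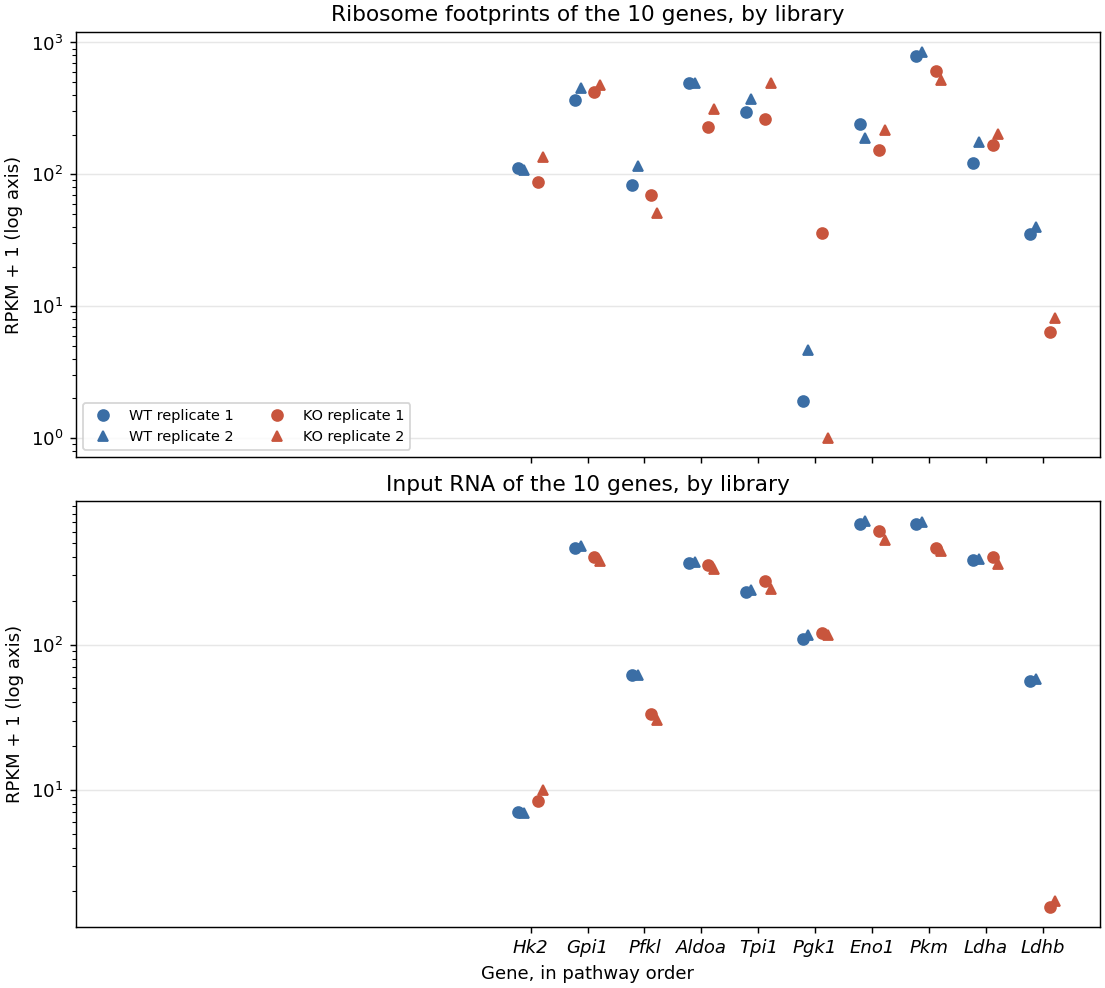
Footprint level (top) and RNA level (bottom) of the 10 genes in each of the 4 libraries, as RPKM plus 1 on a log axis, with blue for WT-labelled and red for KO-labelled libraries and circles and triangles for replicates 1 and 2. Ldhb RNA drops from 55.3 and 57.0 RPKM to 0.553 and 0.710 RPKM, and Pgk1 has footprints near 0 except in KO replicate 1.

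Hk2 encodes hexokinase 2, which phosphorylates glucose at the entry of the pathway. Its RNA was 6.02 and 5.96 RPKM in the WT-labelled libraries and 7.41 and 9.01 RPKM in the KO-labelled ones. Both KO-labelled libraries were higher and the groups did not overlap, and the log2 difference was 0.39 ± 0.10 (SE; adjusted p = 0.0129 in limma). A fit without 1 library takes the spread from the group that keeps 2 and assumes that the lone library varies alike. The call was lost without WT replicate 1 (limma adjusted p = 0.0546) and without WT replicate 2 (0.0643). Its footprints were 111 and 106 RPKM against 86.9 and 134 RPKM. The KO-labelled libraries lay on either side of the WT-labelled ones, with a log2 difference of -0.01 ± 0.33 (SE).

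Hk2 had the lowest RNA level of the 10 genes in the WT-labelled libraries but a high ratio of footprints to RNA. Its deposited TE was 15.9 and 15.4 in the WT-labelled libraries and 10.4 and 13.5 in the KO-labelled ones. The groups did not overlap, but the log2 difference of -0.40 ± 0.33 (SE) did not pass in limma (adjusted p = 0.628). The WT mean exceeded the TE of 95.6% of tested genes. In contrast, the WT mean TE of the other 8 tested members lay under the 25th percentile of tested genes, from 0.626% for Eno1 to 24.2% for Pfkl. The gene lengths behind footprints and input were not the same (Hk2 was 2.69 times as long as Ldhb behind the footprints and 3.80 times behind the input), so TE levels of different genes also carry that difference. Of the other hexokinases, Hk3 had more footprints than Hk2 in every library, with Hk2 at 0.214 and 0.218 of the Hk3 level in the WT-labelled libraries and 0.343 and 0.345 in the KO-labelled ones.

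Gpi1 encodes glucose-6-phosphate isomerase, the enzyme of the next step. Its RNA was 461 and 479 RPKM in the WT-labelled libraries and 403 and 373 RPKM in the KO-labelled ones. Both KO-labelled libraries were lower, by a log2 difference of -0.28 ± 0.07 (SE; adjusted p = 0.0153 in limma), and this call was lost without WT replicate 1 (adjusted p = 0.139 in limma) and without WT replicate 2 (0.224). Its footprints were 364 and 450 against 422 and 473 RPKM, and the groups overlapped. Its TE was 0.790 and 0.940 against 1.05 and 1.27, higher in both KO-labelled libraries, with a limma adjusted p of 0.642.

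Pfkl encodes the liver-type subunit of phosphofructokinase, which catalyses the committed step of glycolysis. Its RNA was 60.9 and 60.7 RPKM in the WT-labelled libraries and 32.3 and 29.4 RPKM in the KO-labelled ones. The KO-labelled libraries were lower by 1.97-fold with no overlap, and the log2 difference was -0.96 ± 0.07 (SE; adjusted p = 3.5e-05 in limma). Its footprints were 82.7 and 115 against 69.3 and 49.9 RPKM, also without overlap, but the log2 difference of -0.72 ± 0.34 (SE) did not pass (limma adjusted p = 0.359). Non-overlap is common with 2 libraries a group, at 52.5% of tested genes in footprints, 82% in RNA and 48% in TE. Of the 10 genes, the groups were apart for 4 in footprints, 8 in RNA and 4 in TE.

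The muscle-type subunit gene, Pfkm, moved the opposite way in RNA. Pfkm RNA rose by 0.77 ± 0.09 on the log2 scale (SE; adjusted p = 0.000409 in limma), from a mean of 2.37 to 4.74 RPKM. Pfkm passed the filter on footprints through the KO-labelled libraries alone, where it is high, so its test was not independent of that choice. The ratio of Pfkl to Pfkm RNA was 24.0 and 27.5 in the WT-labelled libraries and 6.57 and 6.44 in the KO-labelled ones. The same ratio in footprints was 16.5 and 14.4 against 4.84 and 3.10. In both measures every KO-labelled library lay below both WT-labelled ones, and with 2 libraries a group the smallest exact two-sided permutation p is 0.333. Pfkl remained the more abundant of the pair in all 4 libraries.

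Aldoa encodes aldolase A, which cleaves fructose-1,6-bisphosphate. Its footprints differed more between the groups than its RNA did. Its footprints were 494 and 494 RPKM in the WT-labelled libraries and 228 and 313 RPKM in the KO-labelled ones, and its RNA was 366 and 369 against 351 and 332 RPKM. The groups did not overlap in either measure. The log2 difference in footprints was -0.89 ± 0.29 (SE) and did not pass in limma (adjusted p = 0.217). It was -1.12 with an adjusted p of 0.041 without KO replicate 2, while the adjusted p was 0.836 without WT replicate 1, 0.893 without WT replicate 2 and 0.162 without KO replicate 1. In RNA it was -0.11 ± 0.07 (SE; adjusted p = 0.213 in limma), and without KO replicate 1 it was -0.15 and with quantile normalization -0.22, each with an adjusted p of 0.0279. TE was 1.35 and 1.34 against 0.650 and 0.943, lower in both KO-labelled libraries, with a limma adjusted p of 0.452. In the authors' deposited table the p-value of Aldoa is 0.0325, a column that matched a one-sided test on TE with no adjustment.

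Tpi1 encodes triosephosphate isomerase, which interconverts the triose phosphates. Its footprints were 295 and 370 RPKM in the WT-labelled libraries and 263 and 492 RPKM in the KO-labelled ones, the highest and the lowest value both being in KO-labelled libraries. Its RNA was 231 and 237 against 275 and 240 RPKM, with a log2 difference of 0.13 ± 0.08 (SE; adjusted p = 0.2 in limma). KO replicate 1 was the higher of the KO-labelled libraries in RNA and the lower in footprints. Without KO replicate 2 the RNA difference was 0.23 (limma adjusted p = 0.00905), with the spread then taken from the WT-labelled libraries alone. Input reads of the KO-labelled libraries differed more from each other than those of the WT-labelled ones, with a chi-square per gene of 9.48 against 4.73.

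Pgk1 encodes phosphoglycerate kinase 1, the first ATP-forming step. Its RNA was plentiful and similar in all libraries, at 109 and 115 RPKM in the WT-labelled libraries and 119 and 115 RPKM in the KO-labelled ones. Its footprint reads numbered 1 and 3 against 16 and 0, which is why it was not tested. The enzymes on either side of it in the pathway showed the same scarcity of footprints. Gapdh, which encodes glyceraldehyde-3-phosphate dehydrogenase, had 13 and 10 footprint reads against 2 and 2, with RNA between 375 and 407 RPKM. Pgam1, which encodes a phosphoglycerate mutase, had 1 and 0 against 2 and 0, with RNA between 220 and 297 RPKM. These genes have near-identical copies in the genome, and how reads with several matches were counted is not stated in the labels. Their footprint and TE values, and those of other members with such copies, are therefore uncertain. Ldha and Ldhb may be among these, since genes named Ldha-ps and Ldhb-ps are also listed. Whether copies have a part in the scarcity of footprints was not tested.

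Eno1 encodes enolase 1, which forms phosphoenolpyruvate. Its RNA was 681 and 712 RPKM in the WT-labelled libraries and 606 and 525 RPKM in the KO-labelled ones. Both KO-labelled libraries were lower, with a log2 difference of -0.30 ± 0.09 (SE; adjusted p = 0.0229 in limma). That call was lost without WT replicate 1 (limma adjusted p = 0.156), without WT replicate 2 (0.248) and with quantile normalization (0.114). Its footprints were 241 and 187 against 153 and 217 RPKM, and the groups overlapped. Eno1 was level with Pkm as the most abundant RNA of the 10 in the WT-labelled libraries, yet its WT mean TE was at 0.626% of tested genes.

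Pkm encodes pyruvate kinase, which forms pyruvate and ATP, and the table does not separate its M1 and M2 isoforms. Its RNA was 679 and 700 RPKM in the WT-labelled libraries and 466 and 440 RPKM in the KO-labelled ones. Both KO-labelled libraries were lower, by 1.52-fold, with a log2 difference of -0.61 ± 0.07 (SE; adjusted p = 0.000392 in limma). Its footprints were 783 and 852 against 602 and 520 RPKM, the highest of the 10 genes in every library. The footprint groups did not overlap, and the log2 difference of -0.54 ± 0.26 (SE) did not pass (limma adjusted p = 0.354). TE was 1.15 and 1.22 against 1.29 and 1.18, and the groups overlapped.

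Ldha showed no detectable difference. Its RNA was 382 and 385 RPKM in the WT-labelled libraries and 402 and 360 RPKM in the KO-labelled ones, and its footprints were 122 and 174 against 165 and 202 RPKM. The groups overlapped in both. The log2 differences were -0.01 ± 0.08 (SE) in RNA and 0.32 ± 0.32 (SE) in footprints, with limma adjusted p-values of 0.893 and 0.632. Its WT mean RNA exceeded 98.7% of tested genes, while its WT mean TE stood at 1.05%. That TE may carry the uncertainty about copies given for Pgk1.

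Ldhb RNA was 55.3 and 57.0 RPKM in the WT-labelled libraries and 0.553 and 0.710 RPKM in the KO-labelled ones. The recovered input reads were 1661 and 1625 against 16 and 19. Both KO-labelled libraries were near the floor and far below both WT-labelled ones, and the mean fell by 88.9-fold. The log2 difference was -5.13 ± 0.08 (SE; adjusted p = 4.29e-08 in limma), rank 1 from the lowest of 6389 tested genes. The 1 added to RPKM makes this an understatement of the fold. Ldhb was tested only for being high in the WT-labelled libraries. Its RNA difference and rank are therefore descriptions, and the p-value was not independent of that choice. In bulk RNA, fewer cells of a type and less RNA per cell cannot be told apart.

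Ldhb footprints differed less between the groups than its RNA, on few reads. They were 34.5 and 38.7 RPKM in the WT-labelled libraries and 5.37 and 7.13 RPKM in the KO-labelled ones, from 31 and 26 reads against 2 and 2. The groups did not overlap, and the log2 difference of -2.38 ± 0.35 (SE) did not pass with all libraries (limma adjusted p = 0.0678). Because Ldhb was tested only for being high in the WT-labelled libraries, this difference is a description and its p-value supports nothing. The limma adjusted p was 0.702 without WT replicate 1 and 0.609 without WT replicate 2, against 0.0431 without KO replicate 1 and 0.0196 without KO replicate 2. With no filter on low values it was 0.163. Pooled by group, the WT-over-KO ratio was 89.3 in input reads (exact 95% interval 64.1 to 128) and 5.93 in footprint reads (2.19 to 22.5), intervals that cover counting error only. Reads of the KO-labelled replicates differed by more than counting error, with a chi-square per gene of 14.8 in footprints and 9.48 in input. The 2 intervals therefore cannot decide whether the ratios differ.

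Ldhb TE was 0.630 and 0.685 in the WT-labelled libraries and 4.10 and 4.75 in the KO-labelled ones, with no overlap. The log2 difference was 2.75 ± 0.32 (SE; adjusted p = 0.147 in limma), higher than that of 99.5% of tested genes. The limma adjusted p was 0.997 without WT replicate 1 and 0.676 without WT replicate 2, against 0.0253 without KO replicate 1 and 0.0223 without KO replicate 2, and 0.35 with no filter on low values. Only 2 footprint reads per KO-labelled library stand behind it, and the same input RNA enters both the RNA difference and the TE. In the KO-labelled libraries Ldhb RNA, at 0.553 and 0.710 RPKM, lay under the 1 that is added in TE. Without the added 1, the ratio of Ldhb footprints to RNA was 0.624 and 0.680 against 9.71 and 10.0. In the authors' deposited table the p-value of Ldhb is 0.00373, from the one-sided test on TE with no adjustment. Because Ldhb was tested only for being high in the WT-labelled libraries, its TE difference is a description. The p-values given here for its TE support nothing.

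**Figure D2:**
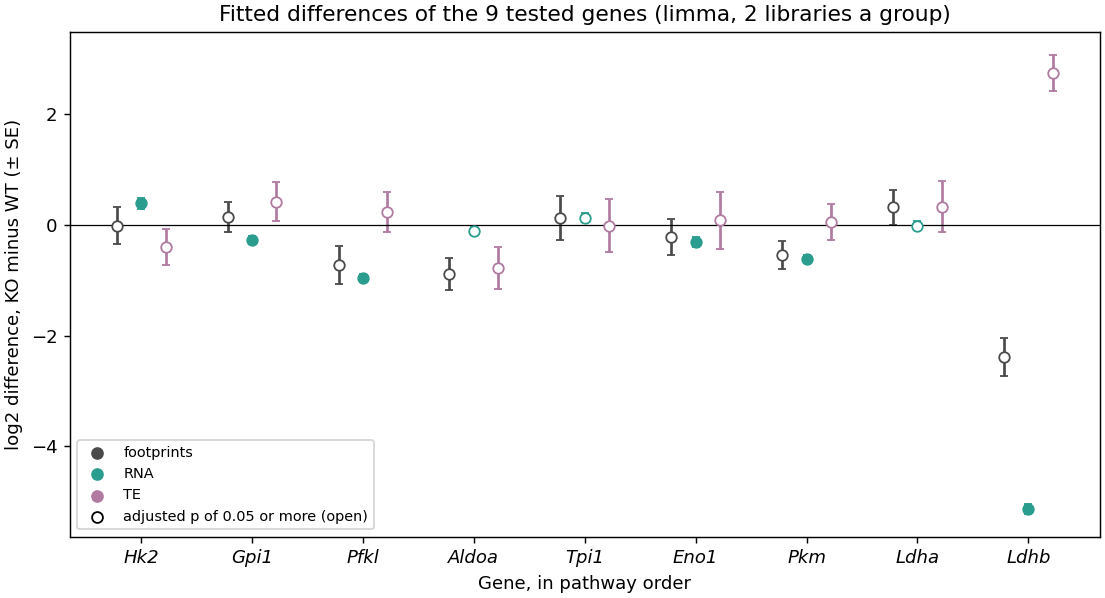
Fitted log2 difference (KO minus WT) of the 9 tested genes in footprints, RNA and TE, with bars for the SE of the limma fit and filled points for an adjusted p under 0.05. The filled points are RNA values of 6 genes, and Ldhb stands apart at -5.13 in RNA, -2.38 in footprints and 2.75 in TE.

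Ldha exceeded Ldhb in all 4 libraries, and by more in the KO-labelled ones. The ratio of Ldha to Ldhb RNA was 6.91 and 6.76 in the WT-labelled libraries and 727 and 506 in the KO-labelled ones. In footprints it was 3.53 and 4.51 against 30.7 and 28.3. Every KO-labelled library lay above both WT-labelled ones. Ldhb made up 12.6% and 12.9% of the summed RNA RPKM of the pair in the WT-labelled libraries and 0.137% and 0.197% in the KO-labelled ones. Its share of the pair's footprints was 22.1% and 18.2% against 3.15% and 3.41%. These ratios carry no test, since the smallest exact p with these libraries is 0.333.

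**Figure D3:**
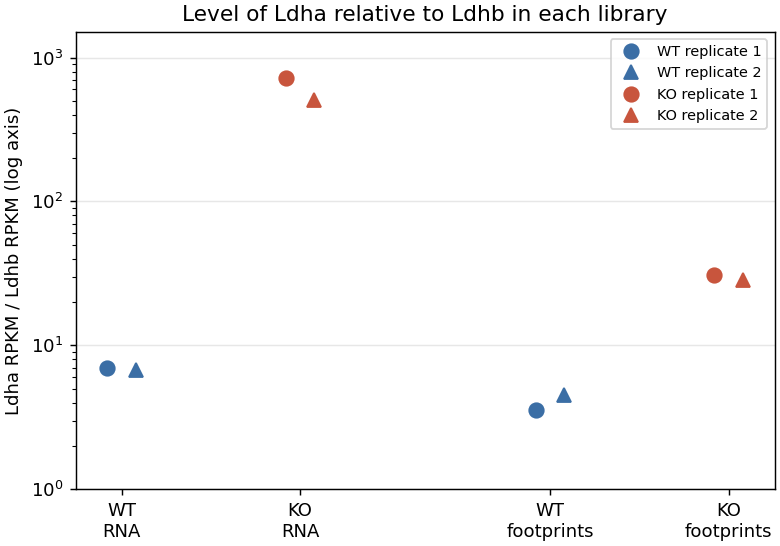
Ratio of Ldha to Ldhb RPKM in each library, on a log axis, for RNA (left) and footprints (right), with blue for WT-labelled and red for KO-labelled libraries. The KO-labelled libraries lie at 727 and 506 in RNA and at 30.7 and 28.3 in footprints, above the WT-labelled ones at 6.91, 6.76, 3.53 and 4.51.

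As a group, the tested members had a median log2 difference of -0.28 in RNA, -0.22 in footprints and 0.09 in TE. The medians of all tested genes were 0.04, -0.13 and -0.15. The summed RNA of the 10 genes was 3032 and 3121 RPKM in the WT-labelled libraries and 2661 and 2423 RPKM in the KO-labelled ones, and their summed footprints were 2527 and 2791 against 2030 and 2408 RPKM. Both sums were lower in both KO-labelled libraries. The order of footprint levels in the WT-labelled libraries ran Pkm, Aldoa, Gpi1, Tpi1, Eno1, Ldha, Hk2, Pfkl, Ldhb and Pgk1. Neighbours in that order were separate in both libraries, except Gpi1 with Tpi1 and Hk2 with Pfkl. In the KO-labelled libraries Aldoa moved below Gpi1 and Tpi1, though it overlapped with Tpi1. The tested genes outside the lists whose 8 centred values (footprints and RNA in 4 libraries) lay nearest the members' mean profile were Gpsm2, M6pr, Rps6ka4, Daglb and B4galnt1, at Euclidean distances of 0.135 to 0.242. Ldhb itself lay 6.75 from that mean and pulled it down, since the mean RNA difference was -0.76 over the 9 members and -0.22 without Ldhb. The nearest genes to the mean without Ldhb, an alternative added after seeing the data, were Twf2, G3bp1, Canx, Myo1f and Sec61a1, which share 0 genes with the first set.

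Other genes of glucose metabolism were read from 6 lists. From 60% to 75% of the tested genes of each list passed in RNA. Of all tested genes 60.8% passed, 33.1% as higher and 27.7% as lower, so the counts below are descriptions. Of the other glycolytic isoenzymes and steps, 5 of 19 were tested, of which Pfkm rose in RNA, Hk3 and Aldoc fell and 2 did not pass. Among 7 tested glucose and lactate transporters 4 rose, 1 fell and 2 did not pass. Slc2a6 rose by 1.30 ± 0.07 and Slc2a3, the high-affinity glucose transporter GLUT3, by 0.93 ± 0.09 on the log2 scale (SE; adjusted p = 9.25e-06 and 0.000125 in limma). Among 8 tested regulators of glycolytic flux, 1 rose, 4 fell and 3 did not pass. Pdk3, a kinase that inhibits pyruvate dehydrogenase and that passed the filter through the KO-labelled libraries alone, rose by 0.96 ± 0.08, while Hif1a, the oxygen-regulated transcription factor subunit, had a log2 difference of -1.11 ± 0.07 (SE; adjusted p = 1.67e-05 in limma).

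Of 4 tested gluconeogenic genes 1 rose in RNA, 2 fell and 1 did not pass. Fbp1 encodes fructose-1,6-bisphosphatase, which opposes phosphofructokinase, and it fell in both RNA and footprints. Its log2 difference was -4.83 ± 0.10 (SE; adjusted p = 8.75e-08 in limma) in RNA and -4.91 ± 0.34 (SE; adjusted p = 0.021 in limma) in footprints. The footprint reads were 146 and 107 against 2 and 1, and the footprint call was lost without WT replicate 1 (limma adjusted p = 0.38), without WT replicate 2 (0.349) and with no filter on low values (0.0783). Fbp1, like Aldoc, passed the filter through the WT-labelled libraries alone, so its footprint values are a description. So did Pcx, the other gluconeogenic gene that fell, and Slc2a8, the transporter that fell. The RNA tests of these genes were not independent of that choice. Fbp1 was the single gene called in footprints in the 6 lists, against 1.06% of all tested genes. Of 8 tested pentose phosphate genes 2 rose in RNA, 4 fell and 2 did not pass. Pgls rose by 1.22 ± 0.06 and Pgd had a log2 difference of -0.79 ± 0.06 (SE), on either side of 0. Of 12 tested genes of glycogen and hexose branches 2 rose, 6 fell and 4 did not pass, among them Pygl, the liver glycogen phosphorylase, at -0.98 ± 0.06 (SE). In TE 0 of the 44 tested genes of these lists passed in limma, and 4 had an unadjusted p under 0.05, against 13% of all tested genes.

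**Figure D4:**
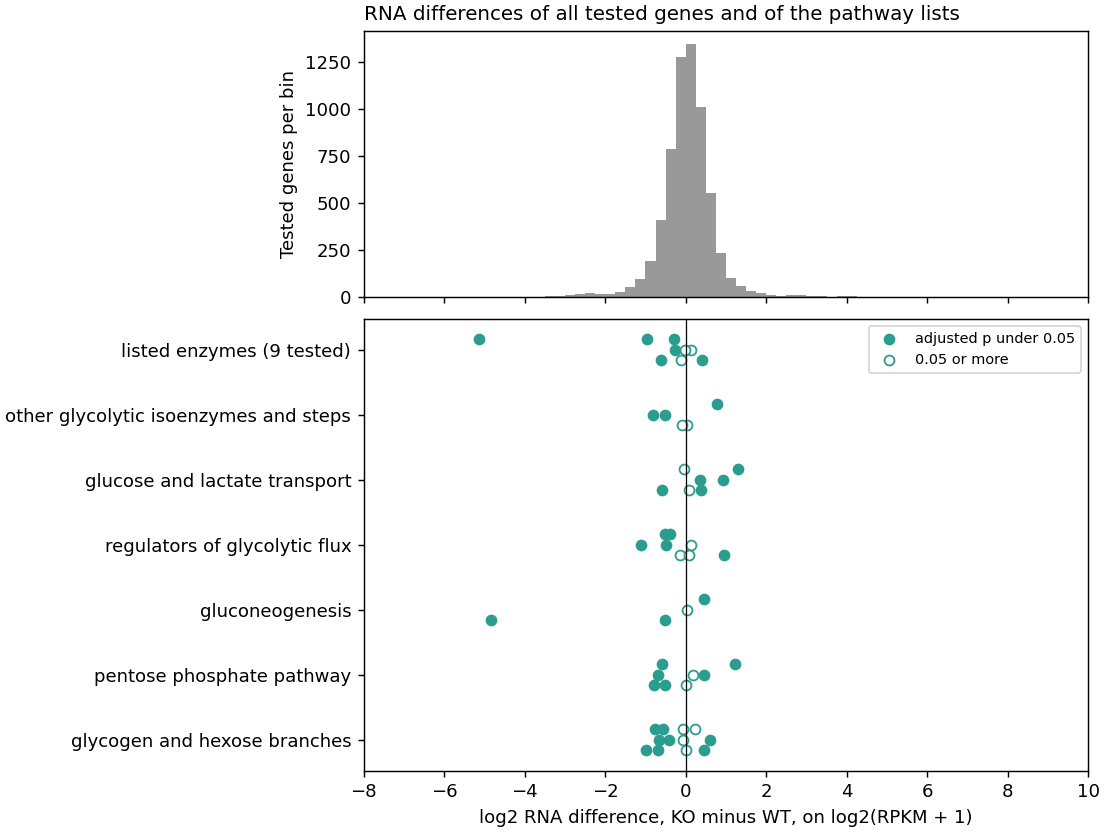
Log2 RNA difference (KO minus WT) of all 6389 tested genes as a histogram (top) and of each tested gene of the pathway lists as points (bottom), filled where the adjusted p was under 0.05 in limma. Points fall on both sides of 0 in each list, and Ldhb at -5.13 and Fbp1 at -4.83 lie farthest to the left.

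Markers of other cell types moved with the groups. In RNA, 33.1% of all tested genes were called higher and 27.7% lower, and the counts below are descriptions beside these shares. Summed RNA of the 6 monocyte and macrophage markers was 6152 and 6145 RPKM in the WT-labelled libraries and 1849 and 1790 RPKM in the KO-labelled ones, and 5 of the 6 fell while Ly6c2 rose. Of 8 neutrophil markers 6 fell, 1 rose and 1 did not pass, with sums of 18029 and 17203 against 11410 and 11061 RPKM. The mast cell, basophil and eosinophil markers summed to 35.9 and 34.1 against 511 and 494 RPKM, and all 5 tested rose. The filter on footprints can admit a marker through the group where it is high. Footprints were 6.37 and 13.4 against 542 and 668 RPKM for Cpa3, and 2.37 and 2.12 against 78.2 and 45.6 RPKM for Gata2. The tests of such markers were not independent of that choice. Of 6 tested stem and progenitor markers 4 rose, 0 fell and 2 did not pass. The called share of 66.7% is near the 60.8% of all tested genes called in either direction. All these calls were higher, however, against 33.1% of all tested genes called higher. Erythroid markers summed to 84.6 and 76.4 against 421 and 514 RPKM, none of them tested. T and NK markers summed to 16.4 and 16.5 against 431 and 361 RPKM, nearly all from Nkg7, while Cd3d and Cd3e stayed under 1 RPKM. Stromal and endothelial markers went from 12.1 and 12.4 to 73.3 and 80.3 RPKM, B cell markers went from 43.0 and 40.5 to 28.3 and 26.4 RPKM, and megakaryocyte markers from 0.854 and 1.21 to 20.4 and 21.6 RPKM. Their part in the differences of the glycolytic genes was not tested.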

How the data were processed

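Ribosome footprints and input RNA of 4 libraries, 2 per group, were read from 1 deposited table. The tools in the submitters' processing notes are featureCounts, DESeq2, CASAVA and HISAT2 2.1.0, whose roles and annotation are not stated, with hg38, a human build, for mouse samples. The deposited footprint columns have the steps of RPKM with 1 added, a unit read from the values. The deposited TE is the ratio of footprints to input RNA, each with 1 added, and RNA was obtained by dividing footprints by TE. The authors' deposited p-value column equalled a one-sided, equal-variance test on TE, unadjusted, for 16250 of 16250 genes compared, within 1e-06.

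The RPKM steps gave whole reads (tolerance 0.002 reads) for 10536 of 10536 genes with footprints in 2 or more libraries; 455 gene lengths came out fractional and were multiplied, and 2 stayed fractional. Genes with a CPM of recovered reads of at least 20 in 2 libraries were tested on log2(RPKM + 1) with limma 3.58.1 (R 4.3.3) and its intensity trend. All 6389 tested genes entered the fit with group as the only term, two-sided, with Benjamini-Hochberg adjustment and a threshold of 0.05. This scale understates changes of low genes. TE was fitted as the difference of log2 footprints and log2 RNA. Python 3.11.15 did the rest, and the fits were tested on simulated data.

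The members and lists were chosen with earlier results of these data known, so no list was tested. Named genes were the members, Rreb1, genes of the pathway lists past the threshold, and the 5 tested genes nearest the members' mean profile. Others were named after their values were seen: Gapdh, Pgam1, Ldhb's chromosome neighbours, and the genes with 1 high library. Marker genes came from fixed lists. Replicates differed by more than sampling noise (chi-square per gene of footprint reads 5.43 between WT libraries and 14.8 between KO libraries). All 10 members matched RefSeq symbols, as did 14322 of the table's symbols. Alternatives covered the pseudocount, filter, scaling, trend, read counts, a replicate block and leaving out each library.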

Additional observations from a re-analysis of the deposited data

How the results depend on the processing

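Over 43 single-gene results, 145 leave-one-out values and 340 values under other settings kept their direction and side of the threshold, 8 and 4 fell short of a threshold passed with all libraries and the main settings, 7 and 1 newly passed it, and 12 and 5 changed sign. With 5 added to RPKM, 110 genes were called in footprints and 1 in TE. With no filter, 0 were called in footprints and 6502 in RNA (0 in footprints by limma, with 1667 at an unadjusted p under 0.05). A CPM minimum of 50 gave 120, 2453 and 1 in footprints, RNA and TE. The replicate block gave 32 genes in footprints, and Gpi1 (limma adjusted p = 0.057) and Eno1 (0.061) lost their RNA calls. Same-numbered libraries deviated with correlations of 0.0226 in footprints, -0.335 in RNA and 0.00836 in TE, so the numbers were not taken to pair the samples. The crossed pairing, added after seeing the data, gave 134 genes in footprints, 4395 in RNA and 2 in TE. Without a pseudocount the log2 change of the Ldha to Ldhb RNA ratio was 6.47. Under median centring and quantile normalization, Hk2 footprints were 0.05 and 0.09 and Tpi1 TE 0.03 and 0.26; under median centring Ldha RNA was 0.0022. Quantile normalization moved the median of all tested genes from -0.13 to -0.02 in footprints. Leaving out 1 library at a time, genes called ranged from 0 to 1097 in footprints (0 without WT replicate 1 or 2, 336 without KO replicate 1, 1097 without KO replicate 2), 2681 to 3919 in RNA and 0 to 699 in TE. Members called ranged from 0 to 2, 3 to 7 (3 without WT replicate 1 or 2) and 0 to 1, and their medians from -0.44 to 0.03, -0.33 to -0.20 and 0.02 to 0.44. Gene values that changed sign when a library was left out ranged from -0.32 to 0.30 (Hk2 footprints), -0.01 to 0.30 (Gpi1 footprints), -0.33 to 0.57 (Tpi1 footprints), -0.56 to 0.54 (Tpi1 TE), -0.47 to 0.03 (Eno1 footprints), -0.27 to 0.44 (Eno1 TE), -0.0034 to 0.13 (Pkm TE) and -0.09 to 0.07 (Ldha RNA). The causes were not tested. Depth limits Ldhb footprints, at 2 reads in each KO-labelled library.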

Other observations

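The RNA of genes next to Ldhb on its chromosome, in the order of the GRCm38.p6 annotation, was read after the values of Ldhb were seen. Recql had 9.03 and 8.36 RPKM in the WT-labelled libraries and 11.7 and 10.7 RPKM in the KO-labelled ones (log2 difference 0.33 ± 0.08 SE, limma adjusted p = 0.0115). Pyroxd1 had 1.31 and 1.35 against 1.31 and 1.22 RPKM (limma adjusted p = 0.729). Cmas had 5.78 and 4.46 against 3.13 and 4.31 RPKM (limma adjusted p = 0.0626), and Golt1b, not tested, had 28.7 and 25.9 against 31.7 and 26.7 RPKM.

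Footprints of 3 genes of glucose metabolism were high in 1 library. Bpgm, which encodes bisphosphoglycerate mutase, had 9, 4 and 3 reads in the WT-labelled libraries and KO replicate 1 and 327 in KO replicate 2. Slc16a7, a monocarboxylate transporter gene, had 8, 10 and 3 reads in the same libraries and 305 in KO replicate 2. Hif1a had 157 and 126 reads in the WT-labelled libraries, 357 in KO replicate 1 and 33 in KO replicate 2.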
